A study of Mus musculus with 12 samples.

Results

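The morula stage of mouse development was set against all other stages measured. Genes were sorted by whether both morula arrays lay above, or below, every one of the other 10 arrays. Of 21156 genes, 2481 (11.7%) lay above every other array and 1604 (7.58%) below. Among the genes furthest above were Vnn1, Cldn7, Nanog and Fbp2, and those furthest below were Mfap2, Mest, Pnrc1, Map1b and Meis2. Higher in the morula than in the average of the other stages were Cldn4 and Cldn7, Krt8 and Krt18, 23 of 32 pluripotency genes, 28 of 31 proteasome subunits, 54 of 59 cytosolic ribosomal proteins and 55 of 75 subunits of the respiratory chain and ATP synthase. Against E16.5 alone, 32 of the respiratory chain and ATP synthase subunits were higher and 28 lower, and 30 and 8 of the cytosolic ribosomal proteins. Over all genes 24% were higher than the average of the other stages and 26.4% lower. Keratin and cortical cytoskeleton genes as a list had 4 higher and 8 lower of 20. Tight junction and polarity genes had 15 and 6 of 30. Adherens junction and desmosome genes had 5 and 8 of 22, and 10 and 7 against the pronuclear and 2-cell stages alone. Lower were 19 of 30 genes of glycolysis and related pathways, 12 of 23 of cholesterol synthesis and uptake and 16 of 25 imprinted genes. Against the pronuclear and 2-cell stages alone these lists had 9 higher and 9 lower, 6 and 7, and 7 and 8.

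A morula is the preimplantation embryo after several cleavage divisions. At this stage its cells flatten against each other in compaction, which depends on E-cadherin, and outer cells acquire apical and basal sides and begin to assemble tight junctions. Outer cells are the precursors of the trophectoderm, the first epithelium, which later pumps fluid into the blastocyst cavity, while inner cells give rise to the pluripotent inner cell mass. Energy metabolism of cleaving embryos rests mainly on pyruvate, lactate and mitochondrial oxidation, with glucose use growing towards the blastocyst.

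RNA of whole mouse embryos was measured on Clariom S Mouse arrays, whose probes cover exons of well-annotated genes. The groups were pronuclear embryos (E0.5, 2 arrays), 2-cell embryos (E1.5, 2 arrays), morulae (E2.5, 2 arrays), E10.5 embryos (3 arrays) and E16.5 embryos (3 arrays), with the day of the mating plug counted as E0.5. All came from females given hormones for superovulation and then mated naturally, and no strain, genetic change or drug is named in the labels. The pronuclear embryos were washed and kept in KSOM, a culture medium, and 2-cell embryos and morulae were collected 24 and 48 h after the plug. Each array of the later groups held 1 whole embryo, whose differentiated organs a morula lacks, while the number of embryos behind an array of the first 3 groups is not stated. Whether samples of a group came from different mothers is not stated either, so p-values measure only the spread between these samples. In whole embryos, fewer cells of a type and less RNA per cell cannot be told apart.

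Values are log2 signals, and a difference below is the morula mean minus the mean of the other 4 stage means, each stage weighted equally. It was tested with limma, and adjusted p-values are Benjamini-Hochberg values over all genes with a threshold of 0.05. Signals reached 19.53 on this scale, so differences are not calibrated as folds of RNA. Array medians lay between 6.19 and 6.62. Precision is limited by how few arrays a stage has. Across genes, which are not independent replicates, the 2 morula arrays correlated at 0.979 and a morula array with an array of another stage at 0.712 to 0.846. The column headers of the deposited table carry 1 date for the pronuclear, 2-cell and morula arrays and another for the E10.5 and E16.5 arrays. The comparison of the morula with the pronuclear and 2-cell stages therefore lies within 1 header date, and is given below as the early comparison. Differences from E10.5 and E16.5 cannot be told apart from that date.

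The morula differed from the average of the other stages in about 1 gene of 2. In the contrast, 5071 genes (24%) were higher and 5581 (26.4%) lower, or 50.3% in either direction. In the early comparison, fitted on the 6 early arrays alone, 4279 genes (20.2%) were higher and 4461 (21.1%) lower. Against single stages, the share called was smallest for the 2-cell stage, with 20% higher and 20% lower (40% in all). It was 23.8% and 23.9% (47.7%) against pronuclear embryos, 26.6% and 25.2% (51.9%) against E10.5, and 29.8% and 28% (57.9%) against E16.5. These 4 comparisons share the morula arrays. The balance of directions depended on the scaling: 47.6% of the calls were higher as deposited, 30.9% (3265 higher, 7302 lower) with each array centred on its receptor median, described below, and 59.7% (6679 higher, 4503 lower) with each array centred on its upper quartile. Of the genes above every other array, 2421 of 2481 passed the contrast upward, and of those below, 1580 of 1604 passed downward. These sets were chosen by the same values, so that overlap is a description and their members' p-values are no support for the sets. For any member named below, lying apart from all other arrays is the condition of the set and not a further result. The contrast also called 2650 genes higher and 4001 lower that are in neither set, since at least 1 other array reached or passed a morula array.

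**Figure D1:**
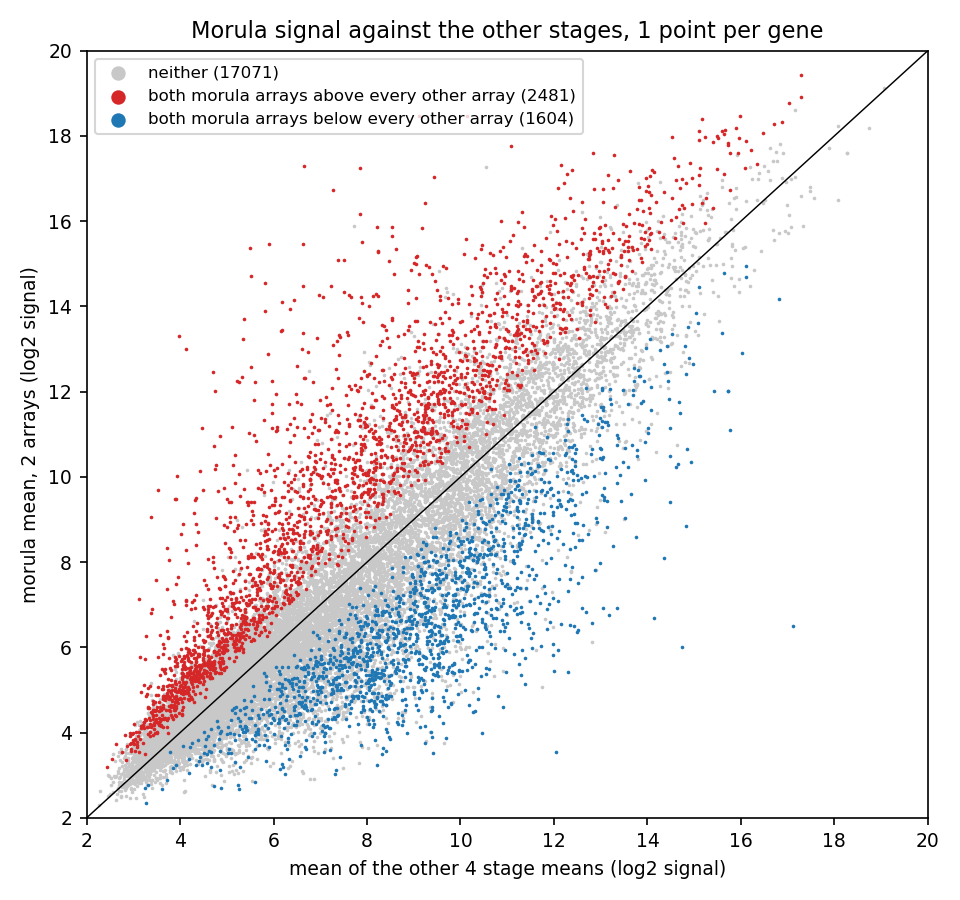
Morula mean (vertical axis, log2 signal, 2 arrays) against the mean of the other 4 stage means (horizontal axis, log2 signal), 1 point per gene, with the line of equality in black. Red points are the 2481 genes with both morula arrays above every other array and blue points the 1604 genes with both below; red points reach from the dim to the bright end, and blue points lie mostly where the other stages are well above background.

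The distance from the morula arrays to the nearest other array, called the gap here, was small for most members. Its median was 0.58 above and 0.57 below. It was at least 1 for 810 genes above and 497 below, at least 3 for 117 and 39, and at least 5 for 20 and 5. At the edge of the set, Ccdc144b had its lower morula array at 5.596 and the highest other array at 5.596, with a gap of 0.0007, and Ccdc7b had a gap of 0.0011. Prkcz and Prss51 just missed it, with lower morula arrays at 8.443 and 6.623 and highest other arrays that round to the same values. On the lower side, Fbxw2 and Mylip were inside by 0.0003 and 0.0012, and Trappc1 and Nfatc2 missed by 0.0009 and 0.0015.

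The dim end of the set was close to background. Chemosensory receptor genes (Olfr, Vmn1r, Vmn2r and Taar, 1416 measured), known mainly from sensory neurons, served as a measure of background signal, and their 95th percentile in a stage is called the receptor range. It lay at 6.01 in pronuclear embryos, 6.49 at the 2-cell stage, 6.18 for the morula, and 5.48 and 5.43 for E10.5 and E16.5. The median receptor was higher in morulae (4.49) than in any other stage (3.87 to 4.40). Of the receptors themselves, 136 (9.6%) lay above every other array at the morula stage against 11.7% of all genes, but 2 (0.141%) did so by at least 1 against 3.83% of all genes. The share of receptors in the set was thus near that of all genes, and their share with a gap of at least 1 was not. Of the 2481 genes above, 515 had a morula mean within the receptor range, while 794 of the 810 with a gap of at least 1 were above it. In the contrast 269 receptors were called higher and 31 lower, with a median difference of 0.34, and the part of background in the calls of other dim genes was not tested.

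Among the brighter members, patterns over the other stages varied. Of the 1966 genes above every other array with a morula mean above the receptor range, 1277 were above the range at all 4 other stages too, and 155 at none of them. The nearest other array was a 2-cell array for 911 of the 2481 genes, a pronuclear array for 540, an E10.5 array for 538 and an E16.5 array for 492. Of the 1604 genes below, 407 had the morula within the receptor range and all 4 other stages above it. Here the nearest array was from the 2-cell stage for 557, E16.5 for 420, E10.5 for 332 and the pronuclear stage for 295. The same count for the other stages gave 3084 genes above and 1925 below for pronuclear embryos, 1621 and 1441 for 2-cell embryos, 2193 and 889 for E10.5, and 2334 and 1594 for E16.5, where groups of 3 arrays meet the condition less easily than groups of 2. The X chromosome held 4.39% of the genes above and 4.11% of those below, against 4.19% of all genes.

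Of 9 measured markers of the morula stage, Cdx2, Tfap2c, Pou5f1, Nanog, Cdh1, Krt8, Krt18 and Cldn4 were higher in the contrast and Cldn6 did not pass. The markers were chosen with earlier results of these data known and called in the same contrast. Their calls are therefore a description and no independent check of the morula label. The tight junction genes Cldn7 and Cldn4 were among the members furthest above. Cldn7 (chromosome 11, 69964779 to 69967886, mm10), a claudin of tight junctions, had signals of 14.65 and 14.76 on the morula arrays, 5.28 and 4.82 on the pronuclear arrays, 6.23 and 5.42 on the 2-cell arrays, 4.81, 5.14 and 4.61 at E10.5 and 5.82, 6.70 and 6.44 at E16.5. Both morula arrays lay 7.95 or more above all others, and only the E16.5 stage mean was above the receptor range among the other stages. The difference was 9.20 ± 0.28 (SE, adjusted p = 4.4e-12). Cldn4 (chromosome 5, 134945123 to 134946934), another claudin, had 13.99 and 14.30 on the morula arrays, 7.07 and 8.48 on the pronuclear arrays, 5.55 and 4.47 on the 2-cell arrays, 6.59, 6.81 and 6.89 at E10.5 and 6.65, 5.69 and 6.20 at E16.5. Its pronuclear arrays were the next highest and its 2-cell arrays the lowest, and the difference was 7.71 ± 0.35 (SE, adjusted p = 1.82e-10).

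Promoter windows of RefSeq on GRCm38.p6 run from 250 bases before to 50 bases after a transcript start. They are shown for the 2 genes on each side with the largest gap that had a window within 100 bases of the deposited annotation's start, because these are the genes that separate the morula most. Capitals mark matches of 10 short motifs, searched on both strands, where overlapping matches would all be marked. The letters were GGAATG for TEAD factors, AGATAA for the GATA family, GCCNNNGGC for the TFAP2 family, GGGTGTG for the Kruppel-like family, ATGCAAAT for the POU octamer, TATAAA for the box of that name, CCAAT for the factor NFY, GGGCGGGG for the SP factors, CCGGAAG for the ETS family and CACGTG for the E-box. The window of Cldn7 (chr11:69964529-69964828, + strand) and that of Nanog (chr6:122707239-122707538, + strand), a pluripotency factor, read as follows.
Cldn7: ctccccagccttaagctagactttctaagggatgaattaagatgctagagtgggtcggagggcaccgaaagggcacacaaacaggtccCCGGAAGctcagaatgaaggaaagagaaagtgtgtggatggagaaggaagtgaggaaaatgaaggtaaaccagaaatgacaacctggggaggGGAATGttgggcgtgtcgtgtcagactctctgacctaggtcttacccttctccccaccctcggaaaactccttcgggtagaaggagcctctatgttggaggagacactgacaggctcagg
Nanog: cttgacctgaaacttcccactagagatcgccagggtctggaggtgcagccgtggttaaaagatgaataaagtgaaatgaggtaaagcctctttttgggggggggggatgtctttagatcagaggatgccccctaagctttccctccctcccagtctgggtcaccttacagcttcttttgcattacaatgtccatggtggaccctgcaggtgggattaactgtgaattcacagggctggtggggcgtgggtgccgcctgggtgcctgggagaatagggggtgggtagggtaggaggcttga
The Cldn7 window holds 1 ETS match and 1 TEAD match. The Nanog window holds none of the motifs. Over all 15541 windows matched by symbol, 13.4% hold the TEAD letters, 12.2% those of ETS, 9.68% those of the GATA family, 20.5% TFAP2, 8.15% Kruppel-like, 1.69% the octamer, 12.9% the TATAAA box, 38.5% the NFY letters, 24.9% the SP letters and 8.09% the E-box. Only 73.5% of genes had a window (74.5% of those above, 76.8% of those below), under the 80% needed, so a comparison of motifs between the sets is void and was not made. A match is a description of letters and not a binding site.

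**Figure D2:**
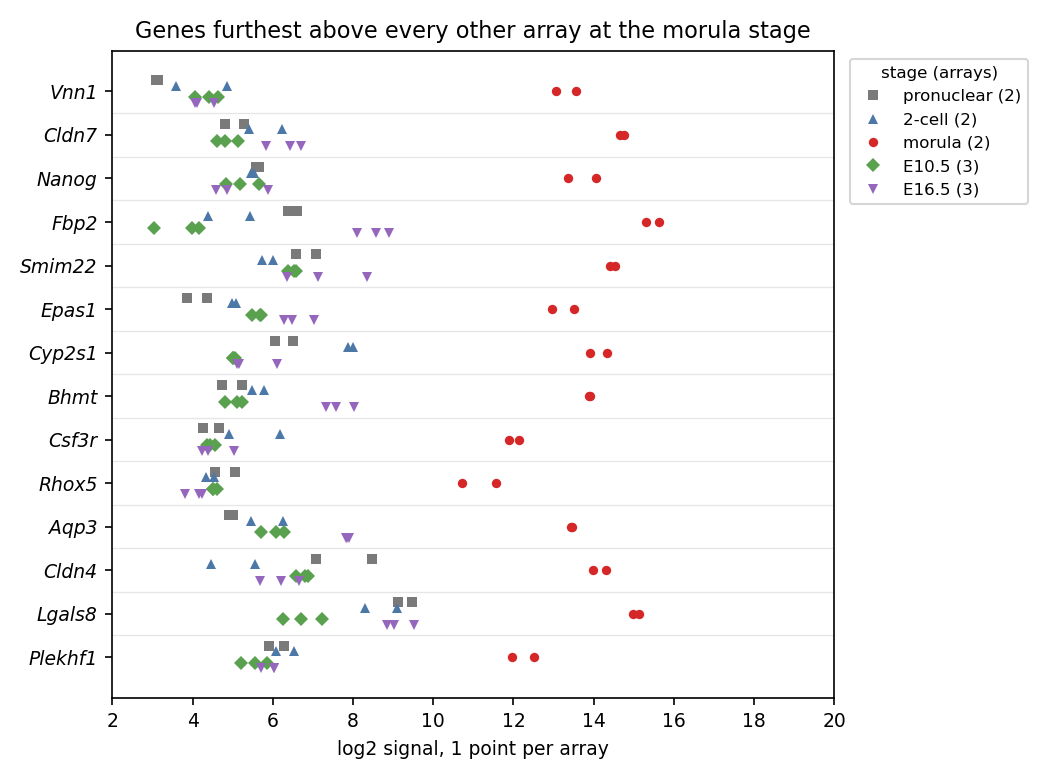
Log2 signal (horizontal axis) on each of the 12 arrays for 14 of the 15 named genes with the largest gap above every other array, from Vnn1 (gap 8.22) at the top to Plekhf1 (gap 5.43). Red circles are the 2 morula arrays, and the other symbols are the arrays of the other 4 stages. The red points stand to the right of all others in every row.

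Other junction genes followed less uniformly. Of 30 measured tight junction and polarity genes, 15 were higher and 6 lower, with a median difference of 0.68 against 0.02 over all genes. In the early comparison 13 were higher and 5 lower. Ocln, F11r and Lsr, which encode occludin, the junctional adhesion molecule A and angulin 1, were higher by 2.57 ± 0.27, 3.06 ± 0.28 and 2.41 ± 0.24 (SE, adjusted p at most 9.02e-07), and all were in the set above. Crb3, an apical polarity protein, was higher by 3.12 ± 0.27 (adjusted p = 1.52e-07), but its early difference was -0.41 and did not pass. Jam2, another junctional adhesion molecule, was lower than every other array, with a difference of -2.64 ± 0.38 (SE, adjusted p = 3.04e-05). Cldn6, which did not pass as a marker above, had a mean of 5.45 within the receptor range and a difference of 0.05 that had an adjusted p of 0.899.

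Among 22 adherens junction and desmosome genes, 5 were higher and 8 lower (median 0.01), and the early comparison had 10 higher and 7 lower. Cdh1, which encodes E-cadherin, averaged 14.52 in the morula and 12.48 over the other stages, a difference of 2.04 ± 0.24 (SE, adjusted p = 4.19e-06), and was not in the set. Epcam, an epithelial adhesion molecule, was higher by 3.25 ± 0.27 (SE, adjusted p = 8.36e-08), and Perp, a desmosomal protein, by 3.95 ± 0.21 (SE, adjusted p = 9.2e-10), although E16.5 (13.75) exceeded the morula (12.14) for Perp. Lower than every other array were Pvrl3, a nectin, at -3.25 ± 0.26, Lama1, a laminin chain, at -2.86 ± 0.21, and Myo10, a myosin of filopodia, at -2.81 ± 0.25 (adjusted p at most 1.57e-07). Lamb1, a laminin beta chain, was also lower by the contrast (-2.93), with a 2-cell mean of 7.59 beside 7.49 in the morula. The laminin chains and Myo10 are not parts of adherens junctions or desmosomes, so their values do not describe these junctions. The counts are no measure of cell adhesion.

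The simple epithelial keratins Krt8 and Krt18, which pair into filaments, were higher in the morula. Krt8 (chromosome 15, 101996709 to 102004342) had 14.96 and 14.91 on the morula arrays, 10.05 and 9.97 on the pronuclear arrays, 8.68 and 9.11 on the 2-cell arrays, 8.48, 9.31 and 9.31 at E10.5 and 10.75, 10.73 and 10.26 at E16.5. Krt18 (chromosome 15, 102028216 to 102032026) had 13.57 and 13.54 on the morula arrays, 7.90 and 7.68 on the pronuclear arrays, 7.97 and 7.43 on the 2-cell arrays, 7.61, 8.87 and 8.63 at E10.5 and 9.41, 9.47 and 9.91 at E16.5. In both genes the morula arrays lay above all others, while arrays of other stages overlapped each other. The differences were 5.31 ± 0.26 (SE, adjusted p = 3.33e-10) and 5.19 ± 0.30 (SE, adjusted p = 1.65e-09). Of the 20 keratin and cortical cytoskeleton genes, 4 were higher and 8 lower with a median of 0.10, while the early comparison turned this balance to 8 higher and 4 lower (median 0.69). Anxa5, a calcium-dependent membrane binding annexin, was below every other array (-4.70 ± 0.23, adjusted p = 3.06e-10), as was Vil1, the actin bundler villin (-3.88 ± 0.31, adjusted p = 5.13e-08), which went from 11.96 in pronuclear and 9.95 in 2-cell embryos to 5.24 in morulae.

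Genes of water and ion transport serve the later blastocyst in its expansion. Aqp3 (chromosome 4, 41092722 to 41098183), an aquaglyceroporin, had 13.43 and 13.46 on the morula arrays, 5.01 and 4.90 on the pronuclear arrays, 5.47 and 6.26 on the 2-cell arrays, 6.29, 6.09 and 5.70 at E10.5 and 7.85, 7.83 and 7.89 at E16.5. The morula arrays were above all others and E16.5 came next, with a difference of 7.27 ± 0.24 (SE, adjusted p = 9.24e-12). Aqp9, which also passes glycerol, was bright in all early stages (13.73, 12.98 and 14.75) and dim later, so its difference of 5.64 ± 0.23 (SE, adjusted p = 5.75e-11) came with an early difference of 1.39. With a median of 0.34, 4 of the 18 genes of the list were higher and 5 lower, near the shares over all genes of 24% and 26.4%, and the early comparison had 8 higher and 3 lower. The lower genes included Clic1, a chloride channel protein (-3.83 ± 0.34, adjusted p = 1.76e-07), and Car2, a carbonic anhydrase (-5.54 ± 0.26, adjusted p = 2.12e-10).

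A transcription factor of the inner cells was among the genes furthest above. Nanog (chromosome 6, 122707489 to 122714633), a homeobox factor of pluripotent cells, had 13.37 and 14.06 on the morula arrays, 5.59 and 5.66 on the pronuclear arrays, 5.46 and 5.53 on the 2-cell arrays, 4.83, 5.65 and 5.18 at E10.5 and 4.85, 5.88 and 4.59 at E16.5. All other stage means lay within the receptor range, and the difference of 8.35 ± 0.32 (SE, adjusted p = 3.14e-11) is a lower bound. Of 32 pluripotency genes, 23 were higher, 2 lower and 7 did not pass, with a median of 2.43, and 17 were above every other array. The list mean was 9.48 and 9.65 on the morula arrays, 7.34 and 7.18 on the pronuclear arrays, 8.13 and 8.12 on the 2-cell arrays, 5.96, 5.91 and 5.91 at E10.5 and 5.08, 5.32 and 5.14 at E16.5. In the early comparison 22 of them were higher and 3 lower, with a median of 1.61.

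Members of this list took different paths to the morula. Fbxo15, an F-box protein of pluripotent cells, was already bright at the 2-cell stage (15.40 ± 0.14, SD, n = 2) and reached 17.26 ± 0.17 in morulae, and Dppa5a, an RNA-binding protein of the same cells, went from 13.19 through 17.06 to 18.47. Their differences were 9.42 ± 0.27 (SE, adjusted p = 3.14e-12) and 8.34 ± 0.25 (SE, adjusted p = 4.4e-12). Tdgf1, a coreceptor of Nodal, and Utf1, a chromatin factor, were within the receptor range at all other stages, with morula means of 9.47 and 8.05 and differences of 5.55 ± 0.24 and 4.29 ± 0.35 (adjusted p at most 6.26e-08). Zfp42, known as a marker of embryonic stem cells, and Tbx3, a T-box factor, were higher by 3.85 ± 0.22 and 4.55 ± 0.26 and in the set. Pou5f1, the central octamer-binding factor, averaged 16.43 and was higher by 7.20 ± 0.25 (SE, adjusted p = 1.66e-11). Sox2, its partner, averaged 8.06 with a difference of -0.77 that did not pass (adjusted p = 0.0787). Gbx2, a homeobox factor, was lower (-1.97 ± 0.24, adjusted p = 4.33e-06), falling over the early stages from 14.58 through 10.34 to 7.75, while its difference from the late stages alone was 0.77.

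Factors of the trophectoderm were higher in part. Cdx2 (chromosome 5, 147300805 to 147307270), a homeobox factor that specifies this lineage, had 10.65 and 10.39 on the morula arrays, 4.66 and 5.18 on the pronuclear arrays, 5.28 and 4.18 on the 2-cell arrays, 4.70, 5.61 and 5.45 at E10.5 and 6.13, 5.44 and 5.74 at E16.5. No other array came within 4 log2 units, and the difference was 5.35 ± 0.31 (SE, adjusted p = 2.2e-09). Klf5, a Kruppel-like factor used by both first lineages, went from 5.62 and 10.60 to 14.23 in morulae, with 9.57 at E16.5, a difference of 6.35 ± 0.29 (SE, adjusted p = 1.63e-10). Tead4, the TEAD factor upstream of Cdx2, averaged 7.87 with all other stages within the receptor range, and was higher by 3.14 ± 0.27 (SE, adjusted p = 1.31e-07). Elf3 and Grhl2, epithelial transcription factors, and Tfap2c, a TFAP2 factor, were higher by 4.14 ± 0.32, 3.26 ± 0.23 and 3.25 ± 0.28 (adjusted p at most 1.13e-07). In all, 9 of 19 were higher and 4 lower, with 7 in the set above, and the early comparison had 11 higher and 2 lower. The median of 0.24 turned to -0.12 when arrays were centred on the receptor median, so the list has no settled direction as a whole. Ets2, an ETS factor known from trophoblast, was below every other array at 3.43, with a difference of -4.0 ± 0.34 (SE, adjusted p = 1.11e-07).

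The Hippo pathway, which keeps the coactivators of TEAD factors out of the nuclei of inner cells, had 7 higher and 8 lower of 20 genes (median -0.17), and 6 and 3 in the early comparison. Of its kinase pair, Stk4 was above every other array (2.94 ± 0.30, adjusted p = 9.08e-07) and Stk3 below (-1.70 ± 0.23, adjusted p = 1.31e-05). The coactivator Wwtr1 was higher by 2.79 ± 0.22 (SE, adjusted p = 6.13e-08) and its paralog Yap1 had a difference of -1.77 ± 0.38 (SE, adjusted p = 0.00121), with an early difference of -0.92 that did not pass. Amot, an angiomotin that binds these coactivators, was in the set above with a gap of 0.17, while Amotl1 differed by -1.92 with an early difference of -0.27 that did not pass. Of 17 primitive endoderm genes, 4 were higher and 6 lower, and 5 and 2 in the early comparison. The endocytic receptor genes Lrp2 and Cubn were above every other array, at 10.85 and 11.18 and with differences of 5.22 ± 0.31 and 4.31 ± 0.38 (adjusted p at most 1.65e-07). Gata6 was higher (1.93) and Gata4 lower (-2.14), the latter after 12.22 at the 2-cell stage.

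Vnn1 had the largest gap of all. Vnn1 (chromosome 10, 23894688 to 23905343) encodes vanin 1, a pantetheinase that releases cysteamine and a precursor of coenzyme A. Its signals were 13.07 and 13.56 on the morula arrays, 3.08 and 3.14 on the pronuclear arrays, 3.59 and 4.85 on the 2-cell arrays, 4.63, 4.40 and 4.07 at E10.5 and 4.05, 4.12 and 4.54 at E16.5. Both morula arrays lay 8.22 above the next array, a 2-cell array, all other stage means were within the receptor range, and the difference of 9.33 ± 0.30 (SE, adjusted p = 6.54e-12) is a lower bound. Fbp2 (chromosome 13, 62836877 to 62858400), the muscle form of fructose bisphosphatase, a gluconeogenic enzyme, had 15.64 and 15.31 on the morula arrays, 6.60 and 6.38 on the pronuclear arrays, 4.39 and 5.43 on the 2-cell arrays, 4.16, 3.04 and 3.98 at E10.5 and 8.90, 8.09 and 8.58 at E16.5. The E16.5 arrays were next and the difference was 9.56 ± 0.33 (SE, adjusted p = 1.23e-11). Bhmt (chromosome 13, 93616891 to 93637961), which makes methionine from homocysteine with betaine, had 13.90 and 13.88 on the morula arrays, 5.24 and 4.74 on the pronuclear arrays, 5.77 and 5.48 on the 2-cell arrays, 5.11, 4.80 and 5.23 at E10.5 and 7.33, 8.03 and 7.57 at E16.5. E16.5 was again the next stage, and the difference was 8.07 ± 0.24 (SE, adjusted p = 4.4e-12).

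Lipid and amino acid enzymes were split between both directions. Fabp3, a fatty acid binding protein of muscle, reached 15.08 ± 0.06 (SD, n = 2) against 11.88 ± 0.62 (SD, n = 3) at E16.5, a difference of 7.56 ± 0.33 (SE, adjusted p = 1.01e-10), and Elovl6, a fatty acid elongase, was higher by 3.64 ± 0.26 (SE, adjusted p = 1.97e-08). Fads2, a desaturase, and Acsl5, an acyl-CoA synthetase, were below every other array (-5.67 ± 0.29 and -3.39 ± 0.22, adjusted p at most 5.35e-09). The fatty acid list had 15 higher and 10 lower of 33, and 18 and 6 in the early comparison. Against E16.5 it turned to 10 higher and 22 lower, with a median of -1.86. Of 32 genes of amino acid, one-carbon and polyamine metabolism, 18 were higher and 8 lower (median 0.85), and 17 and 4 in the early comparison. Against E10.5, 11 of these were higher and 13 lower. Gldc, the glycine decarboxylase, was above every other array at 13.19 (5.84 ± 0.32, adjusted p = 1.05e-09). Cth, which makes cysteine, Bcat1, a branched-chain aminotransferase, Tyms, the thymidylate synthase, and Odc1, which starts polyamine synthesis, were higher by 2.81 to 3.74 (adjusted p at most 2.82e-08 for Odc1, and 1.59e-08, 1.28e-08 and 5.68e-09 for Bcat1, Cth and Tyms). Mat2b, a regulatory subunit of methionine adenosyltransferase, was below every other array (-3.45 ± 0.21, adjusted p = 2.89e-09).

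Subunits of the proteasome, the protease that degrades ubiquitinated proteins, were higher nearly throughout. Of 31 subunits, 28 were higher and 0 lower, against 24% and 26.4% of all genes, with a median of 2.03, and 20 lay above every other array. Psma4, Psmd4 and Psmd5, named after their values were seen, did not pass, with differences of 0.16, 0.66 and 0.57. Psma5, an alpha subunit of the core, had 16.21 and 16.02 on the morula arrays, 12.39 and 12.21 on the pronuclear arrays, 12.23 and 12.21 on the 2-cell arrays, 12.19, 12.29 and 12.17 at E10.5 and 11.37, 10.16 and 11.56 at E16.5. Psmb4, a beta subunit of the core, had 16.49 and 16.62 on the morula arrays, 11.80 and 11.46 on the pronuclear arrays, 13.42 and 13.32 on the 2-cell arrays, 12.22, 12.43 and 12.35 at E10.5 and 12.39, 11.51 and 12.21 at E16.5. In both, the morula arrays lay above all others, and the differences were 4.17 ± 0.29 (SE, adjusted p = 1.46e-08) and 4.21 ± 0.24 (SE, adjusted p = 1.89e-09). The list mean was 14.40 and 14.46 on the morula arrays, 12.09 and 12.10 on the pronuclear arrays, 11.79 and 11.82 on the 2-cell arrays, 13.23, 13.25 and 13.22 at E10.5 and 12.53, 12.08 and 12.47 at E16.5, so the E10.5 arrays came nearest. The early comparison had 29 higher and 0 lower, with a median of 2.86.

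Ribosomal protein transcripts were also higher, with a different order of stages. Of 59 cytosolic ribosomal proteins, 54 were higher and 1, Rpl17, lower (-0.68), with a median of 1.64 and 35 in the set above. The median was 4.09 against pronuclear embryos, 1.74 against the 2-cell stage, 0.78 against E10.5 and 0.75 against E16.5. Rpl8 was at 18.41 in morulae and 12.72 in pronuclear embryos (3.25 ± 0.23, adjusted p = 1.33e-08), and Rpl35a was higher by 3.84 ± 0.28 (SE, adjusted p = 2.06e-08). Rpl27 had the largest difference of the list, 4.49 ± 0.48 (SE, adjusted p = 1.19e-06). Ribosomal protein genes have many processed pseudogenes of near-identical sequence, and whether the probes tell them apart was not tested.

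Of 75 mitochondrial ribosomal proteins, 56 were higher and 2 lower, with a median of 1.45, and 41 lay above every other array. Unlike the cytosolic list, all 4 other stages had similar medians below the morula, with 55 and 4 genes higher and lower in the early comparison, and medians from 1.18 against the pronuclear stage to 1.69 against the 2-cell stage. Mrpl22 averaged 13.19 and was higher by 4.88 ± 0.21 (SE, adjusted p = 1.07e-10), and Mrps18c and Mrpl17 were higher by 4.16 ± 0.27 and 3.86 ± 0.24 (adjusted p at most 5.22e-09). Mrpl48 was lower by the contrast (-1.56), with an early difference of -3.20 and a late one of 0.08. The other lower gene, Mrpl32, named after its value was seen, was below every other array (-1.05).

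Subunits of the respiratory chain and ATP synthase were higher in 55 and lower in 6 of 75 cases (median 1.38), with 29 in the set above. The list mean was 13.40 and 13.49 on the morula arrays, 11.39 and 11.38 on the pronuclear arrays, 11.54 and 11.57 on the 2-cell arrays, 12.06, 12.12 and 12.07 at E10.5 and 13.42, 12.90 and 13.19 at E16.5. The morula arrays were close to the highest E16.5 array, and the median difference from E16.5 was 0.13 beside 2.02 from pronuclear embryos. Against E16.5, 32 subunits were higher and 28 lower. In the early comparison 60 were higher and 0 lower. Ndufb7, a subunit of complex I, had 14.52 and 14.66 on the morula arrays, 9.54 and 9.62 on the pronuclear arrays, 10.18 and 10.29 on the 2-cell arrays, 8.69, 8.48 and 8.22 at E10.5 and 9.80, 9.29 and 9.54 at E16.5. Its morula arrays lay above all others and the difference was 5.14 ± 0.22 (SE, adjusted p = 9.6e-11). Cyc1, cytochrome c1 of the bc1 complex, and Uqcr10, a small subunit of the same complex, were higher by 5.13 ± 0.34 and 4.70 ± 0.23 (adjusted p at most 8.04e-09). Of the succinate dehydrogenase subunits, named after their values were seen, Sdhb was higher (1.15) and Sdha, Sdhc and Sdhd were lower (-1.66, -0.86 and -1.80). Atp5g2, an ATP synthase gene with paralogs for the same protein, was lower (-2.14), with an early difference of 1.75.

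**Figure D3:**
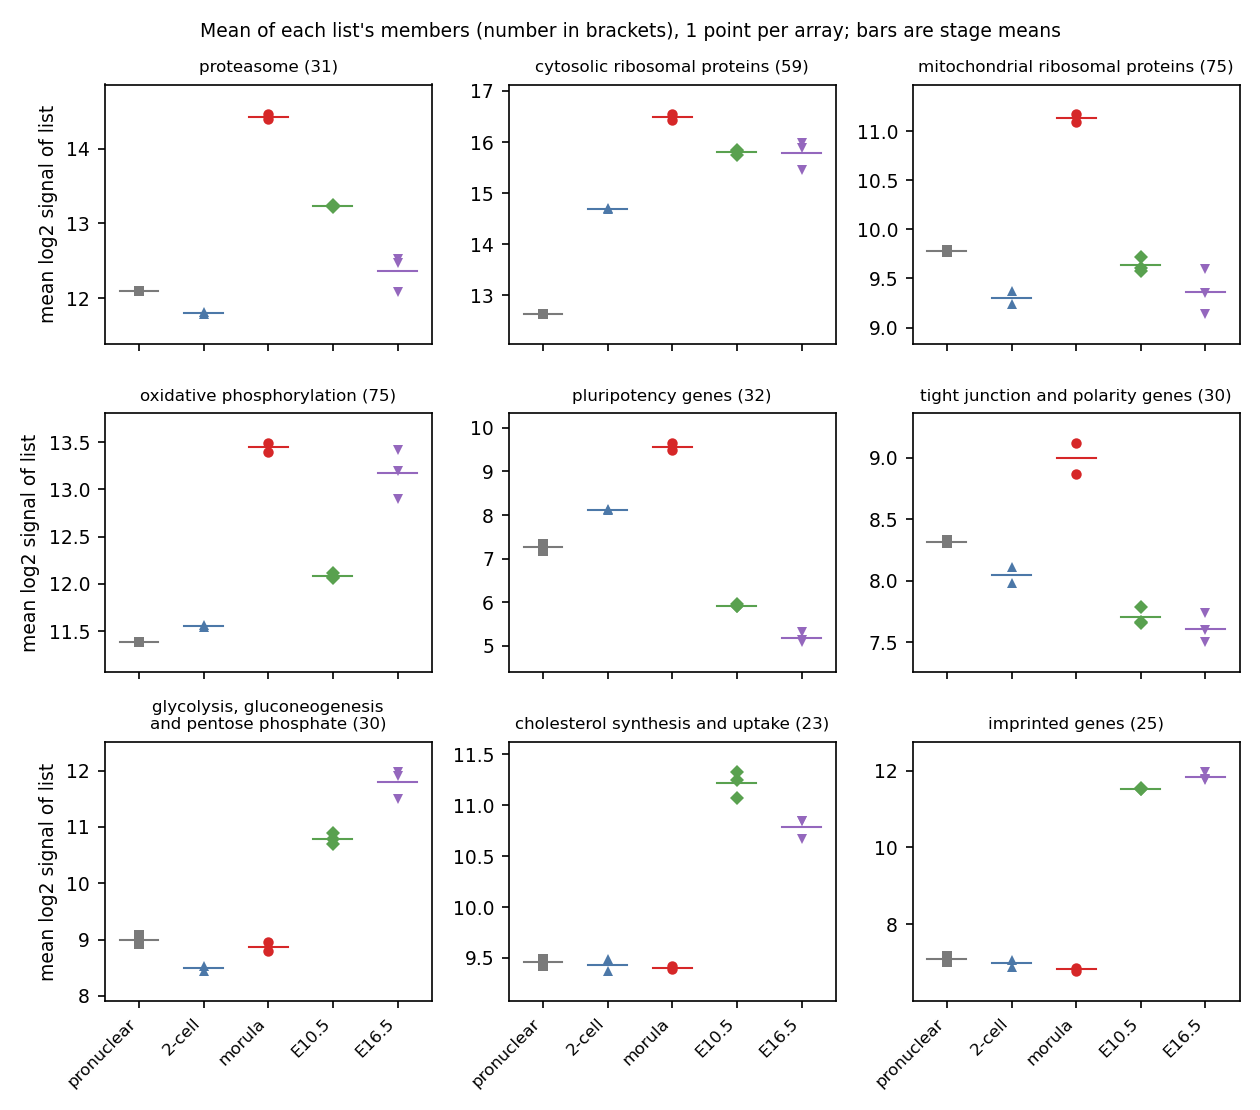
Mean log2 signal of the measured members of 9 gene lists (vertical axes, which differ between panels) on each array, by stage (horizontal axis). Points are arrays and bars stage means. Morula points are the highest for the proteasome, both ribosomal lists, pluripotency and tight junction genes, and for oxidative phosphorylation they lie level with the highest E16.5 point. For glycolysis, cholesterol synthesis and imprinted genes the early stages lie together below E10.5 and E16.5.

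Further genes of protein production and RNA processing leaned the same way. Of 47 ribosome biogenesis genes, 34 were higher and 0 lower (median 1.05). Polr1b, a subunit of RNA polymerase I, and Bop1, which acts in large subunit assembly, were higher by 4.47 ± 0.24 (SE, adjusted p = 1.05e-09) and 4.16 ± 0.23 (SE, adjusted p = 1.07e-09), with 2-cell means of 13.84 and 11.44 next to the morula's 15.31 and 12.50. Among 29 chaperones, 18 were higher and 4 lower. Pfdn6, a prefoldin subunit, and Cct7, a subunit of the TRiC chaperonin, were higher by 3.57 ± 0.27 and 3.20 ± 0.23 (adjusted p at most 3.28e-08), and Hspd1, the mitochondrial chaperonin, was lower by the contrast (-1.33) with an early difference of 1.91. Of 50 splicing genes, 27 were higher and 6 lower. Lsm4 and Lsm6, of the ring on U6 RNA, were higher by 3.62 ± 0.23 and 3.14 ± 0.23, and Srsf4 was below every other array (-2.82 ± 0.22, adjusted p at most 5.24e-08 for these 3). Mars, the methionyl-tRNA synthetase, was higher by 5.18 ± 0.22 (SE, adjusted p = 9.89e-11) in a list of 19 synthetases with 10 higher and 2 lower. The early comparison gave the same lean in each, with 30 and 2 higher and lower for ribosome biogenesis, 22 and 2 for chaperones, 30 and 1 for splicing, and 14 and 1 for synthetases. Against E10.5 the counts in the same order were 21 and 6, 14 and 12, 18 and 19, and 5 and 9. The lean thus did not hold against E10.5 for splicing genes (median -0.09) and synthetases (median -0.73).

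Lysosomal genes had 22 higher and 8 lower of 40, with 13 in the set above. Antioxidant enzymes and metallothioneins had 9 higher and 7 lower of 23, and stress and immediate early genes 2 higher and 5 lower of 18. In the early comparison the counts higher and lower were 25 and 7 for the lysosome, 15 and 4 for antioxidant enzymes, and 0 and 9 for stress genes. Against E16.5 they were 9 and 12, 6 and 12, and 6 and 4 in the same order, and the lysosomal median there was -0.04. Grn, which encodes progranulin, averaged 15.97 and was higher by 4.74 ± 0.29 (SE, adjusted p = 3.89e-09). Psap, the precursor of saposins, was higher by 2.99 ± 0.21 (SE, adjusted p = 1.71e-08). Ctsb, cathepsin B, and Arsb, an arylsulfatase, were below every other array (-2.92 ± 0.21 and -3.04 ± 0.24, adjusted p at most 4.75e-08).

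Of 32 nutrient transporters, 7 were higher and 10 lower, near the shares over all genes, and the early comparison had 11 higher and 5 lower. Slc1a1, a glutamate and aspartate carrier, had 14.24 and 14.73 on the morula arrays, 7.90 and 8.06 on the pronuclear arrays, 10.33 and 10.33 on the 2-cell arrays, 4.99, 4.72 and 4.32 at E10.5 and 5.89, 5.68 and 6.20 at E16.5. It was above every other array, with the 2-cell arrays next and a difference of 7.26 ± 0.24 (SE, adjusted p = 9.24e-12). Slc6a8, the creatine transporter, was higher by 6.01 ± 0.21 (SE, adjusted p = 1.64e-11), and Slc5a6, a biotin and pantothenate carrier, by 5.26 ± 0.22 (SE, adjusted p = 8.07e-11). Slc39a8, a zinc importer, had 5.14 and 2.85 on the morula arrays, 10.56 and 10.78 on the pronuclear arrays, 9.42 and 9.77 on the 2-cell arrays, 11.42, 11.37 and 11.02 at E10.5 and 10.09, 10.40 and 10.38 at E16.5. Its morula arrays differed from each other by more than those of the other stages, yet both were below all others (-6.46 ± 0.39, adjusted p = 3.19e-09). Slc38a2, a neutral amino acid transporter, was below every other array too (-4.49 ± 0.22, adjusted p = 2.94e-10).

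Regulators of DNA methylation and chromatin were found on both sides. Tet2, which oxidises methylcytosine, had 14.77 and 14.74 on the morula arrays, 6.50 and 7.32 on the pronuclear arrays, 7.09 and 7.42 on the 2-cell arrays, 10.28, 10.17 and 10.08 at E10.5 and 9.60, 10.45 and 9.91 at E16.5. It was above every other array and higher by 6.17 ± 0.26 (SE, adjusted p = 9.6e-11). Its relative Tet1 was higher by 3.0 ± 0.25 (SE, adjusted p = 1.06e-07), and Dnmt3l, a cofactor of the de novo methyltransferases, by 4.95 ± 0.28 (SE, adjusted p = 1.5e-09). Below every other array were Smarca2, an ATPase of chromatin remodelling (-4.30 ± 0.25, adjusted p = 2.01e-09), and Ehmt1, a histone methyltransferase (-3.20 ± 0.20, adjusted p = 4.08e-09). Zfp57, which protects imprints, went from 17.71 through 14.86 to 7.82 and was lower by the contrast (-5.08) without being in the set. The list had 14 higher and 17 lower of 45, and 15 and 17 in the early comparison. Of 57 cell cycle and replication genes, 24 were higher and 17 lower, and 22 and 14 in the early comparison. Against E10.5 the counts were 13 and 30, and against E16.5 they were 35 and 8. Pold1, the catalytic subunit of DNA polymerase delta, was above every other array (5.44 ± 0.28, adjusted p = 5.92e-10), as was Cdkn1a, a CDK inhibitor (3.29 ± 0.25, adjusted p = 3.28e-08), and Ccnd2, cyclin D2, was lower (-5.33 ± 0.30, adjusted p = 1.3e-09) with an early difference of -1.24.

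The remaining genes furthest above belong to none of the lists. Smim22, a small membrane protein, had 14.41 and 14.53 on the morula arrays, 7.09 and 6.59 on the pronuclear arrays, 5.73 and 6.01 on the 2-cell arrays, 6.39, 6.58 and 6.54 at E10.5 and 7.12, 8.34 and 6.35 at E16.5. Epas1, a hypoxia-inducible transcription factor, had 12.95 and 13.51 on the morula arrays, 3.86 and 4.37 on the pronuclear arrays, 4.98 and 5.08 on the 2-cell arrays, 5.49, 5.68 and 5.70 at E10.5 and 7.04, 6.29 and 6.48 at E16.5. Cyp2s1, a cytochrome P450, had 13.90 and 14.32 on the morula arrays, 6.06 and 6.50 on the pronuclear arrays, 8.0 and 7.88 on the 2-cell arrays, 5.06, 5.0 and 5.0 at E10.5 and 5.10, 5.17 and 6.11 at E16.5. These 3 genes were named for their gap, so their separation from the other stages was fixed by that choice. The differences were 7.85 ± 0.36 (SE, adjusted p = 1.7e-10), 7.89 ± 0.25 (SE, adjusted p = 6.74e-12) and 7.93 ± 0.27 (SE, adjusted p = 1.1e-11). Csf3r, the receptor for granulocyte colony-stimulating factor, had 11.90 and 12.14 on the morula arrays, 4.66 and 4.27 on the pronuclear arrays, 4.91 and 6.17 on the 2-cell arrays, 4.44, 4.37 and 4.56 at E10.5 and 4.24, 4.39 and 5.03 at E16.5. Rhox5, an X-linked homeobox gene, had 11.56 and 10.72 on the morula arrays, 4.57 and 5.06 on the pronuclear arrays, 4.33 and 4.53 on the 2-cell arrays, 4.51, 4.61 and 4.52 at E10.5 and 3.81, 4.17 and 4.23 at E16.5. Both had all other stage means within the receptor range, so their differences of 7.27 ± 0.30 (SE, adjusted p = 7.02e-11) and 6.67 ± 0.25 (SE, adjusted p = 2.91e-11) are lower bounds. Lgals8, a galectin, and Plekhf1, an endosomal PH and FYVE domain protein, lay 5.45 and 5.43 above the next array, with differences of 6.60 ± 0.29 (SE, adjusted p = 1.1e-10) and 6.27 ± 0.25 (SE, adjusted p = 4.93e-11).

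Of the genes furthest below, Mfap2 came first. Mfap2 (chromosome 4, 141010418 to 141015984), a component of elastic microfibrils, had 4.37 and 2.72 on the morula arrays, 12.51 and 12.65 on the pronuclear arrays, 10.93 and 11.39 on the 2-cell arrays, 11.73, 11.71 and 11.32 at E10.5 and 12.98, 12.27 and 13.28 at E16.5. The morula arrays were within the receptor range and all other arrays at least 6.56 above them, so the difference of -8.50 ± 0.35 (SE, adjusted p = 7.38e-11) is bounded by background on the morula side. Map1b (chromosome 13, 99421446 to 99516602), a microtubule-associated protein of neurons, had 6.74 and 6.63 on the morula arrays, 12.56 and 12.41 on the pronuclear arrays, 11.86 and 12.13 on the 2-cell arrays, 16.33, 16.10 and 16.31 at E10.5 and 16.01, 15.52 and 16.01 at E16.5. Early and late stages were both well above the morula, with a difference of -7.46 ± 0.22 (SE, adjusted p = 3.57e-12). Their promoter windows, chosen as above, lie at chr4:141010174-141010473 (+ strand, 6 bases from the annotated start) and chr13:99516553-99516852 (- strand), both 5′ to 3′ in the direction of the gene.
Mfap2: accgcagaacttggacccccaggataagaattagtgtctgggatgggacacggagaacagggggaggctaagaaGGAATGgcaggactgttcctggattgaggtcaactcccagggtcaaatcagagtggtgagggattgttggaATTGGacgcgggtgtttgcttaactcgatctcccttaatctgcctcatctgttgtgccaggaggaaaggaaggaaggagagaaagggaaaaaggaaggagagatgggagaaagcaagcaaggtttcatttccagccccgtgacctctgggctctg
Map1b: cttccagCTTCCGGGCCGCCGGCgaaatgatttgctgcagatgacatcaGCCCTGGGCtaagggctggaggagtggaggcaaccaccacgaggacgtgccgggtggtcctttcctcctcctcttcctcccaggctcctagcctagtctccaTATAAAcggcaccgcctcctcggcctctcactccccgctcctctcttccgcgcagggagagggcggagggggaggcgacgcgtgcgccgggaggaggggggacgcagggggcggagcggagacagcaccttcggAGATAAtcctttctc
The Mfap2 window holds 1 TEAD and 1 NFY match, the latter on the other strand. The Map1b window holds 1 ETS match on the other strand with a TFAP2 match directly behind it, a further TFAP2 match, and 1 match each to the TATAAA box and the GATA family.

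Several of these genes were bright both before and after the morula. Mest (chromosome 6, 30723547 to 30748466), an imprinted gene of the alpha/beta hydrolase fold, had 5.45 and 7.56 on the morula arrays, 16.78 and 16.82 on the pronuclear arrays, 13.72 and 13.85 on the 2-cell arrays, 19.44, 19.48 and 19.37 at E10.5 and 18.40, 18.40 and 18.59 at E16.5. Its morula arrays lay about 2 log2 units apart, and both were more than 6 below the lowest 2-cell array. The difference was -10.62 ± 0.36 (SE, adjusted p = 1.23e-11), with an early difference of -8.79 and a late one of -12.44. Meis2, a TALE homeobox factor, had 5.86 and 6.15 on the morula arrays, 17.49 and 17.24 on the pronuclear arrays, 15.88 and 15.82 on the 2-cell arrays, 14.32, 14.18 and 14.29 at E10.5 and 11.56, 11.19 and 11.69 at E16.5. The difference was -8.74 ± 0.22 (SE, adjusted p = 1.19e-12), and its early and late differences were -10.60 and -6.87. Pnrc1, a small protein that binds nuclear receptors, had 6.70 and 6.44 on the morula arrays, 12.76 and 13.27 on the pronuclear arrays, 13.03 and 12.93 on the 2-cell arrays, 12.64, 12.35 and 12.33 at E10.5 and 13.18, 11.96 and 13.23 at E16.5. All 4 other stages had means of 12.44 to 13.02, and the difference was -6.24 ± 0.30 (SE, adjusted p = 2.85e-10).

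**Figure D4:**
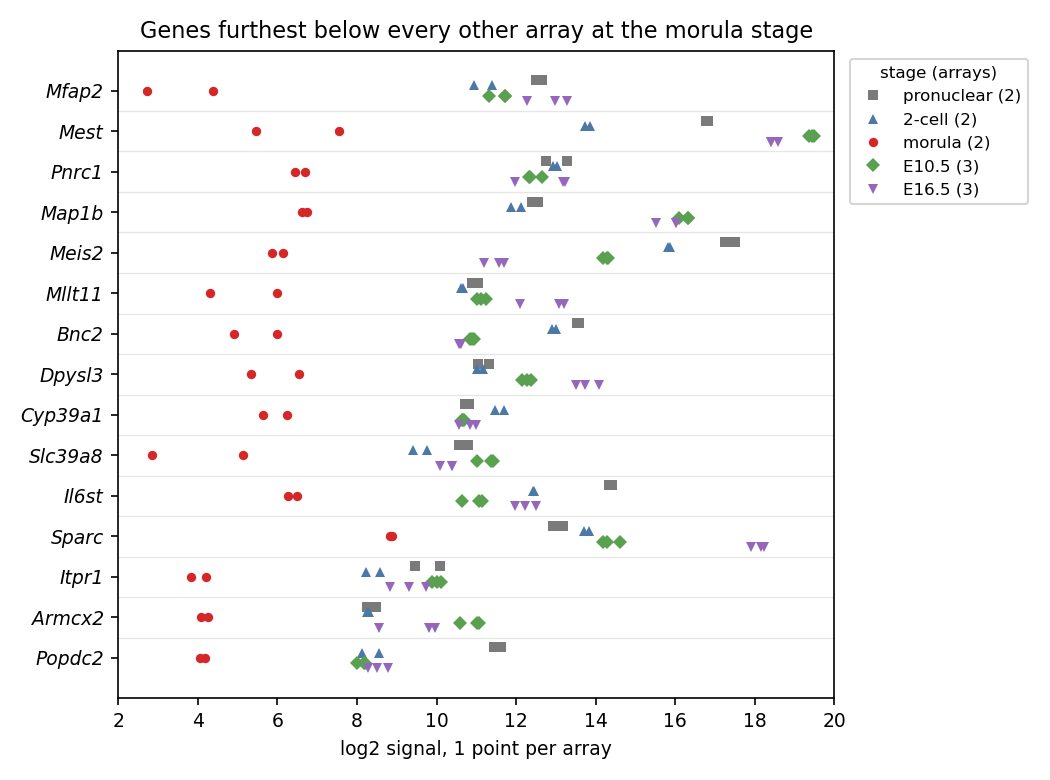
Log2 signal (horizontal axis) on each of the 12 arrays for the 15 named genes with the largest gap below every other array, from Mfap2 (gap 6.56) at the top to Popdc2 (gap 3.83). Red circles are the 2 morula arrays, which stand to the left of all others in every row; for Mfap2, Mest and Slc39a8 they are spread more widely than in most rows.

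Il6st, the receptor chain that LIF and related cytokines share, had 6.27 and 6.48 on the morula arrays, 14.33 and 14.42 on the pronuclear arrays, 12.42 and 12.46 on the 2-cell arrays, 11.07, 11.15 and 10.65 at E10.5 and 12.23, 11.98 and 12.50 at E16.5. It was brightest in pronuclear embryos, and the difference was -6.13 ± 0.22 (SE, adjusted p = 2.37e-11). Sparc, a matrix glycoprotein, had 8.88 and 8.82 on the morula arrays, 13.19 and 12.92 on the pronuclear arrays, 13.71 and 13.82 on the 2-cell arrays, 14.19, 14.60 and 14.29 at E10.5 and 17.90, 18.16 and 18.24 at E16.5. The morula was above the receptor range but below all other arrays by 4.04, with a difference of -5.97 ± 0.21 (SE, adjusted p = 1.89e-11). Itpr1, a calcium release channel that acts at egg activation, Bnc2, a zinc finger protein, and Dpysl3, a cytoskeletal protein of growth cones, had morula means of 4.02, 5.44 and 5.94 within the receptor range. Their differences were -5.35 ± 0.26, -6.56 ± 0.25 and -6.13 ± 0.28 (SE, adjusted p at most 3.77e-10). Mllt11, Cyp39a1, an oxysterol hydroxylase, Armcx2 and Popdc2, a cAMP-binding Popeye protein, were below every other array by 4.64, 4.30, 4.0 and 3.83, and their differences were -6.24, -5.0, -5.08 and -5.01.

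Of 41 growth factors and receptors, 5 were higher and 21 lower, with 8 in the set below, and 6 and 14 were so in the early comparison. Only 18 of them had a morula mean above the receptor range. Tgfb2, a TGF-beta ligand, had 6.81 and 6.71 on the morula arrays, 16.78 and 16.64 on the pronuclear arrays, 15.68 and 15.76 on the 2-cell arrays, 10.14, 9.93 and 10.23 at E10.5 and 10.36, 10.01 and 10.04 at E16.5. It was brightest in pronuclear embryos and below every other array in morulae, with a difference of -6.40 ± 0.21 (SE, adjusted p = 8.28e-12). Igf1 and Vegfa, growth factors of later tissues, were below every other array as well (-5.01 ± 0.22 and -2.31 ± 0.21, adjusted p at most 2.86e-07). Erbb3, a receptor of neuregulins, was above every other array (3.33 ± 0.26, adjusted p = 5.07e-08).

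Glycolytic enzymes were lower in the contrast, but mainly against the later stages. Of 30 genes of glycolysis, gluconeogenesis and the pentose phosphate pathway, 6 were higher and 19 lower (median -1.31). Against the pronuclear and 2-cell stages the medians were 0.10 and 0.00, against E10.5 and E16.5 -2.0 and -3.29, and the early comparison had 9 higher and 9 lower. The 8 genes below every other array included enzymes that were lowest in the morula among the early stages too. Ldhb, a lactate dehydrogenase chain, had 4.95 and 6.28 on the morula arrays, 10.87 and 10.68 on the pronuclear arrays, 8.37 and 8.23 on the 2-cell arrays, 10.05, 10.31 and 10.08 at E10.5 and 10.65, 10.11 and 9.92 at E16.5. G6pdx, the X-linked first enzyme of the pentose phosphate pathway, had 9.77 and 9.45 on the morula arrays, 16.40 and 16.61 on the pronuclear arrays, 14.01 and 13.94 on the 2-cell arrays, 12.15, 12.04 and 11.82 at E10.5 and 12.36, 11.56 and 12.31 at E16.5. In both, the morula arrays lay below all others, with differences of -4.25 ± 0.30 (SE, adjusted p = 1.42e-08) and -4.03 ± 0.24 (SE, adjusted p = 2.92e-09). Pkm, the pyruvate kinase, and Pfkp, a phosphofructokinase, were below too (-4.39 ± 0.26 and -3.23 ± 0.32, adjusted p at most 5.59e-07). Ldha and Pgk1 were not in the set: their early differences of -0.39 and -0.69 did not pass, while their late differences were -8.38 and -8.61. Taldo1, the transaldolase, was above every other array (2.38 ± 0.22, adjusted p = 3.34e-07), like Fbp2.

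Of 23 genes of cholesterol synthesis and uptake, 4 were higher and 12 lower (median -0.82), and 6 lay below every other array. Hmgcs1, which starts the mevalonate pathway, had 8.32 and 8.87 on the morula arrays, 12.04 and 12.40 on the pronuclear arrays, 10.44 and 10.85 on the 2-cell arrays, 16.62, 16.58 and 16.31 at E10.5 and 15.51, 15.59 and 15.79 at E16.5. The morula was lowest and E10.5 highest, with a difference of -5.16 ± 0.23 (SE, adjusted p = 1.63e-10). Sc5d and Nsdhl, late enzymes of the pathway, were below every other array (-3.83 ± 0.25 and -2.86 ± 0.24, adjusted p at most 7.91e-08), while Ebp, another late enzyme, was above (3.74 ± 0.24, adjusted p = 6e-09). The early comparison had 6 higher and 7 lower.

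Imprinted genes, which are expressed from 1 parental allele, had a median difference of -2.98, among the lowest of the lists, with 4 of 25 higher and 16 lower. The early comparison had 7 higher and 8 lower and a median of 0.01, beside a late median of -6.05. Grb10, an adaptor that dampens insulin signalling, had 4.55 and 6.32 on the morula arrays, 9.37 and 9.43 on the pronuclear arrays, 8.55 and 9.25 on the 2-cell arrays, 15.78, 15.72 and 15.81 at E10.5 and 15.28, 14.76 and 15.39 at E16.5. Cd81, a tetraspanin of the Kcnq1 imprinted region, was below every other array as well (-4.49 ± 0.25, adjusted p = 1.35e-09), and Zim1 had a gap of 0.74. Peg3 was at 3.75 in morulae and 3.76 in 2-cell embryos, so its difference of -5.89 ± 0.27 (SE, adjusted p = 1.88e-10) came from the other stages. Sfmbt2, a Polycomb-related imprinted gene, was above every other array with a mean of 6.96 (2.05 ± 0.29, adjusted p = 2.59e-05). Slc38a4, an amino acid transporter, was higher by the contrast (2.30), with an early difference of 6.75 and a late one of -2.15.

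The contrast averages stages that differ, and several lists were lower against 1 side of development only. Of 54 maternal oocyte transcripts, 47 were lower, and 50 in the early comparison, but 0 lay below every other array: the medians were -8.58 against pronuclear embryos and 1.96 against E10.5. Tcl1, a coactivator of AKT kinases that is abundant in oocytes, went from 18.82 at the 2-cell stage to 5.93, which was 1.58 above the late average. That value is within the receptor range, and the receptor median was also higher in morulae (4.49) than at E10.5 (4.01) and E16.5 (3.87). Whether any Tcl1 transcript remained thus cannot be told from background. Khdc3, which encodes a protein of the oocyte's subcortical complex, was the 1 member in the set above, with 14.92 and 15.25 on the morula arrays, 11.89 and 11.70 on the pronuclear arrays, 10.13 and 10.53 on the 2-cell arrays, 4.11, 3.70 and 3.44 at E10.5 and 3.42, 3.84 and 3.57 at E16.5. Its morula arrays lay above the pronuclear and 2-cell arrays, and it was higher by 7.72 ± 0.24 (SE, adjusted p = 5.35e-12).

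Genes known from the wave of transcription at the 2-cell stage had 19 higher and 4 lower of 36, with a median of -4.74 against 2-cell embryos. The early comparison turned the balance, to 6 higher and 20 lower. Timd2, an immunoglobulin and mucin domain protein, had 18.45 and 18.46 on the morula arrays, 5.66 and 5.92 on the pronuclear arrays, 15.66 and 15.78 on the 2-cell arrays, 5.39, 5.66 and 5.21 at E10.5 and 9.68, 10.03 and 9.0 at E16.5. It was bright at the 2-cell stage and higher still in morulae (9.33 ± 0.26, adjusted p = 2.28e-12), while Obox3, an oocyte homeobox gene, went from 14.24 to 5.94. Pramel6, a member of a leucine-rich repeat family, was above every other array (7.01 ± 0.29, adjusted p = 7.1e-11). Tdpoz2, in the set above with a gap of 0.69, has near-identical relatives, and whether its probes tell them apart was not tested.

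Genes of later tissues were lower in the contrast, and of these 5 lists 6, 6, 6, 7 and 5 genes had a morula mean above the receptor range. None of the neural, muscle, mesenchyme, blood and endothelial or liver genes was higher in the contrast with all stages. The lower counts were 13 of 20 neural, 12 of 17 muscle, 18 of 20 mesenchyme and matrix, 13 of 18 blood and endothelial and 13 of 13 liver genes. In the early comparison, in the same order, the counts higher and lower were 1 and 4, 4 and 0, 3 and 4, 1 and 3, and 5 and 1. Over all genes 20.2% were higher and 21.1% lower there. The early medians of the lists were -0.10, 0.61, 0.13, 0.30 and 0.45, beside 0.12 over all genes. Most members were within the receptor range in morulae, where the receptor median was also highest, so no early direction is read from these lists. Of the neural genes 6 were below every other array, and of the muscle genes 0. Tubb3, a beta-tubulin of neurons, had 6.18 and 6.85 on the morula arrays, 13.49 and 13.30 on the pronuclear arrays, 10.65 and 11.41 on the 2-cell arrays, 12.22, 12.16 and 12.44 at E10.5 and 13.17, 11.66 and 13.18 at E16.5. All other stages were bright and the morula was near background, with a difference of -5.82 ± 0.35 (SE, adjusted p = 2.94e-09). Elavl3, a neuronal RNA-binding protein, went the same way (-2.77 ± 0.27, adjusted p = 5.43e-07, early difference -3.63).

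Markers of other cells that a sample could carry were mostly near background, and their part in the results was not tested. Of 11 oviduct markers and 13 sperm markers, 0 had a morula mean above the receptor range, and their list means over morula arrays were 4.89 and 4.84. Of 20 cumulus and granulosa markers, 4 were above the range, 1 was higher and 8 were lower. Vcan and Tnfaip6, matrix genes of the expanding cumulus, were below every other array, and Tnfaip6 went from 11.28 in pronuclear embryos to 4.60 (-4.78 ± 0.26, adjusted p = 9.4e-10). Of 16 decidua and placenta markers, 2 were above the range, and Prl3b1, a placental lactogen, was above every other array at 8.42 ± 0.17 (SD, n = 2), a difference of 2.80 ± 0.23 (SE, adjusted p = 7.96e-08). Hox genes, with 13 lower of 34, had 3 above the range in morulae, and 0 were lower in the early comparison.

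**Figure D5:**
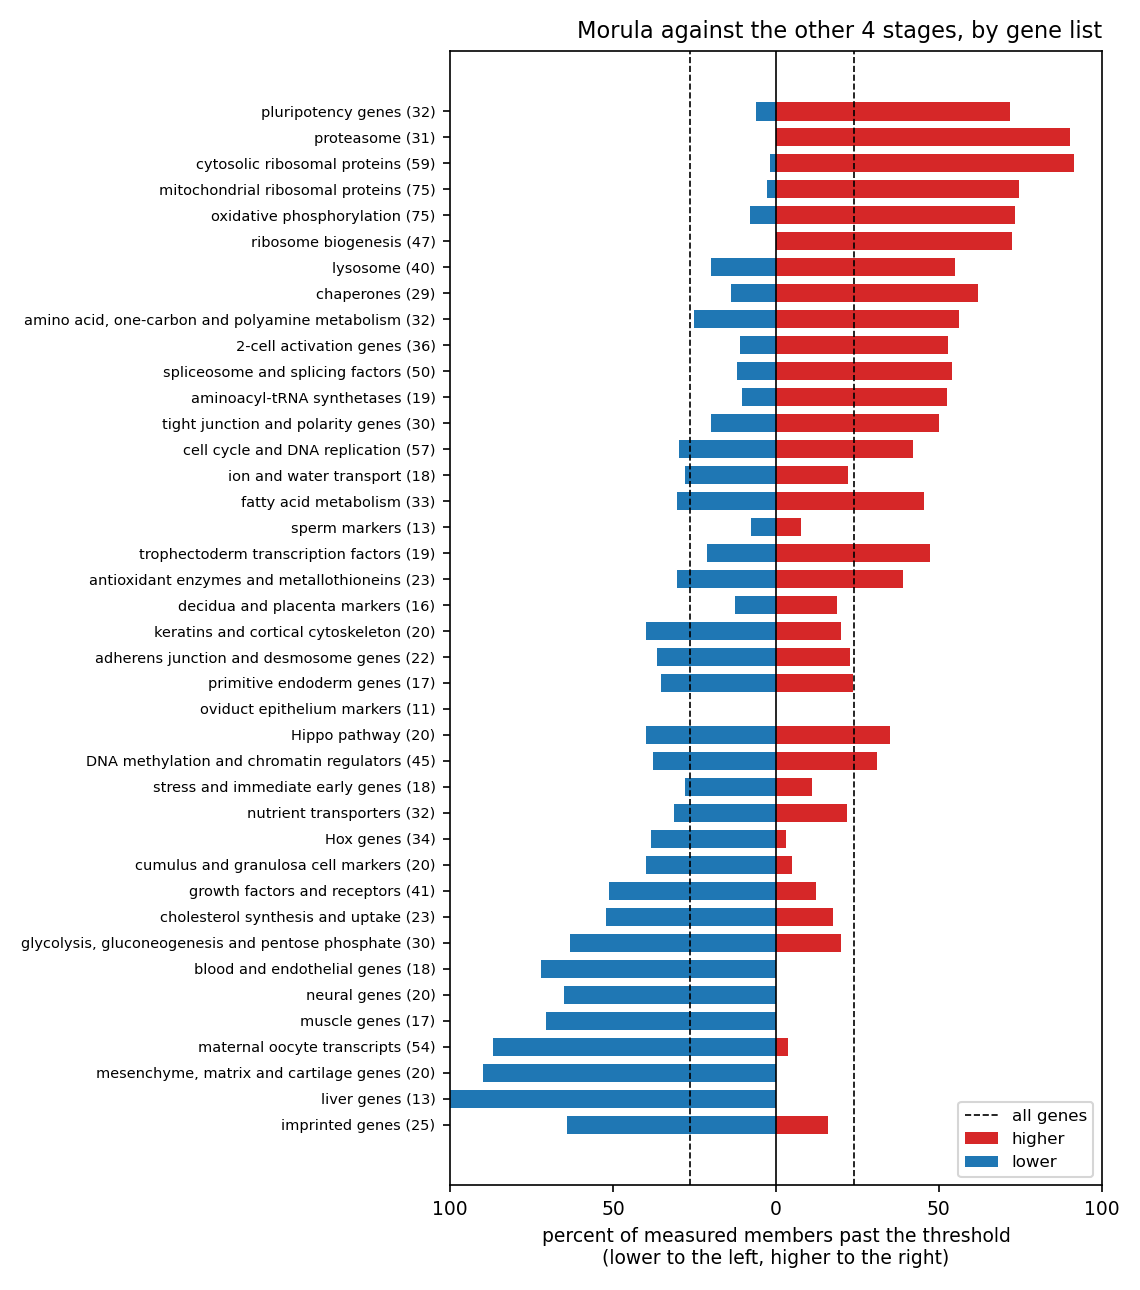
Percent of each list's measured members (number in brackets) that were higher (red, to the right) or lower (blue, to the left) in the morula than in the average of the other 4 stages at an adjusted p of 0.05, ordered by median difference. Dashed lines mark the shares over all genes, 24% higher and 26.4% lower. Proteasome, ribosomal and respiratory chain lists exceed the line on the right, and liver, matrix, maternal and imprinted lists the line on the left.

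The direction of some of these lists depended on how arrays were scaled. The medians of trophectoderm factors, adherens junction, keratin, ion transport, fatty acid and antioxidant genes and of the sperm and placenta markers turned below 0 when arrays were centred on the receptor median, which moved the median of all genes from 0.02 to -0.33. Those of the Hippo pathway, primitive endoderm, chromatin regulators and oviduct markers turned above 0 when arrays were centred on the upper quartile, which moved it to 0.28. Medians of the proteasome, both ribosomal, respiratory chain and pluripotency lists stayed above 1 under all 4 other scalings, and those of glycolysis and imprinted genes below -1.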

How the data were processed

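Total RNA was extracted with QIAzol, and 2 ng per sample was labelled with the pico kit for Clariom S arrays, per the labels' protocols. The authors deposited gene-level log2 signals of 12 arrays, made with the SST-RMA method per the file headers and in Transcriptome Analysis Console per the submitters' processing notes, which name no version. The file headers name mm10 and annotation release na36. A second deposited table held the same log2 values, with 0 differing rows. The authors' deposited table also holds a flag per stage, an other kind of value whose rule is not given and which was used for no call.

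Of 22206 probe sets, 21367 had 1 gene symbol, 836 several and 3 none. The brightest probe set of a gene was kept, leaving out 211 further probe sets of 131 genes, which gave 21156 genes. The 5 stage means were fitted to all 12 arrays with limma 3.58.1 (R 4.3.3, lmFit and eBayes), and the morula mean minus 0.25 of each other stage mean was tested on both sides, with p-values adjusted over all genes by the method of Benjamini and Hochberg. Adjusted p-values in the text come from this limma model or, for single stages and the early or late stages alone, from limma in the same way. Tables and figures used Python 3.11.15, pandas 2.3.3 and matplotlib 3.10.9. Tested on simulated data of 21156 genes for this contrast, the procedure called 12 of 40 genes shifted by 1 log2 unit, 33 of 40 by 2, 40 of 40 by 4, 10 of 40 by -1 and 34 of 40 by -2, and 6 of 20956 unshifted genes. Far fewer genes were shifted there than the 50.3% that the contrast called in the arrays. How the procedure performs at such a share was not tested.

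The genes and the 40 gene lists were chosen with earlier results of these data known, so their counts and medians are descriptions beside those of all genes. Named genes were the 15 with the largest gap on each side, with provisional names and receptors left out; from each list, the 3 with the largest difference in its main direction, the 1 with the largest opposite difference and up to 5 of the sets by gap; the 2 on either side of each set's limit; and up to 2 from lists of other cells. The rule names 244 genes, of which not all are written out, and stage markers and genes said to be named after their values were seen come beside it. Gata3, a further stage marker, is not used here, and some of the named genes are not reported here. Alternatives were the moderation of variance, array weights, a replicate block, 4 scalings, a filter on dim genes, the choice of probe set, thresholds, weights of the other arrays, early or late stages alone, and each array left out. Replicate numbers 1 and 2 gave no sign of pairing samples: the differences of replicate 1 minus replicate 2 correlated at -0.108 to 0.046 over 10 pairs of stages. Replicate 3 of E10.5 and E16.5 did not enter this check.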

Additional observations from a re-analysis of the deposited data

How the results depend on the processing

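Centring each array on its receptor median gave 3265 genes higher, 1611 above every other array and 2510 below, and shifted the median of all genes to -0.33. Requiring a gap of at least 1 left 810 above and 497 below. With the replicate block, which the data gave no sign of pairing, 4781 were higher and 5383 lower. Leaving out 1 array gave 4011 to 5401 higher and 4466 to 5828 lower. For the sets it gave 2514 to 3807 above and 1629 to 2524 below, the largest counts coming without morula replicate 1 (3478 above, 2486 below) or morula replicate 2 (3807 and 2524), where a single morula array has to clear the others by construction. The remaining alternatives kept the 4 counts within 1.5 times their values.

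Of the 244 named genes, those whose sign turned did so mostly where stages were left out. On the early arrays alone the differences were 0.73 for Acta1, 0.45 for Afp, 1.75 for Atp5g2, -0.41 for Crb3, -1.10 for Ddit3, 0.29 for Hbb-y, 0.00 for Hoxd11, 1.91 for Hspd1, 0.64 for Rpl17 and 0.34 for Rspo3. Against E10.5 and E16.5 alone they were 1.22 for Bcl2l10, 0.77 for Gbx2, 0.08 for Mrpl48, 1.9 for Obox3, 0.21 for Prl8a2, 0.11 for Prm2, -2.15 for Slc38a4, 0.20 for Slc9a3, 1.58 for Tcl1 and 1.55 for Tcl1b1. Averaging all probe sets gave -0.01 for Ddit3, and receptor centring -0.03 for Prss51. On the early arrays 17 further named genes lost the call, which rests on fewer samples, and without morula replicate 1 or 2, 8 or 4 did.

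Each stage has 2 or 3 arrays, and dim signals near the receptor range give bounds on a difference. The header date separates the late from the early arrays, and the morula from the late stages cannot be told apart from it.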

Other observations

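Some gene families, a few of whose members are in the lists above, were also found mostly on 1 side. They were picked after their values were seen, so their counts are descriptions beside the 24% and 26.4% of all genes, and whether probes tell near-identical members apart was not tested. Family medians kept their sign on the early arrays alone and under the 4 other scalings. On the early arrays the counts higher and lower were 13 and 1 for Rhox, 6 and 1 for Magea, 16 and 4 for Tomm and Timm, 7 and 0 for Chmp, 1 and 8 for Ift, 0 and 4 for frizzled receptors, and 0 and 5 for beta-tubulins.

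Of 30 Rhox homeobox genes on the X chromosome, 22 were higher in the morula and 0 lower, with a median difference of 0.93. Of the 30, 8 had a morula mean above the receptor range. The brightest were Rhox7a at 11.49, with a difference of -0.33 that did not pass, Rhox5 at 11.14 and Rhox9 at 10.35. Of 8 Magea genes, which are X-linked and known from germ cells and tumours, 6 were higher and 1 lower (median 3.99), and 6 lay above every other array.

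Subunits of the protein import machinery of mitochondria (Tomm and Timm) had 16 higher and 4 lower of 22, with a median of 1.87 and 13 above every other array. Of 10 Chmp genes, whose products form the ESCRT filaments that cut membranes, 8 were higher and 0 lower (median 1.12), with Chmp4c at 11.18 in morulae.

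On the other side were genes of cilia, Wnt receptors and tubulins. Of 14 Ift genes, which carry cargo along cilia, 0 were higher and 12 lower (median -1.58), and 6 lay below every other array. Frizzled receptors had 0 higher and 8 lower of 10 (median -1.39). Beta-tubulins had 0 higher and 7 lower of 8 (median -3.02), and 4 of them lay below every other array.

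Probe sets that carry several gene symbols stayed out of the gene counts. Of 836 such probe sets, 99 (11.8%) had both morula arrays above every other array and 56 (6.7%) below, and the contrast called 241 higher and 186 lower. The authors' flag marked 21 of the genes above every other array as expressed at the morula alone, and 132 of those below at every stage but the morula. How many of all genes carry these patterns was not counted, so nothing particular to the sets can be read from these numbers. The flag also marked Rhox5 as expressed at every stage, although only its morula mean was above the receptor range.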
